A study of Mus musculus with 6 samples.

Results

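Macrophages that enter injured tissue are often described by where they lie between an inflammatory and a tissue-repair state, and 7 genes that are commonly read as markers of those states were followed here: Arg1, Nos2, Chil3, Retnla, Il10, Acod1 and Spp1. They were taken by symbol from the 32285 genes of the deposited count tables, and all 7 were present. The counts come from single cells of mouse ventricles from which cardiomyocytes had been sieved out, sorted as live by Calcein-AM and DAPI, and sequenced with the 10x 3' chemistry. Wild-type mice (WT, strain C57BL/6JRj) and Trpm4 knockout mice (KO, strain B6.Cg-Trpm4tm1.2-PG) were male and 8 to 12 weeks old. Each genotype gave 1 library at 24 h after a sham operation, 1 at 24 h after ligation of the left anterior descending artery (LAD), which induces infarction, and 1 at 72 h after ligation, and each library pooled the cells of 4 mice. With 1 library in each of the 6 groups there is no replicate check and no test, so "higher" and "lower" below compare libraries. All intervals are exact 95% intervals and, like the limits that a count of 0 allows, cover counting error only, not the spread between mice, operations or library preparations.

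As background, Arg1 and Nos2 encode the enzymes that compete for arginine in macrophages. Arginase 1 turns it into ornithine, and the inducible nitric oxide synthase turns it into nitric oxide. Arg1, Chil3, which encodes a chitinase-like lectin, and Retnla, which encodes a secreted resistin-like protein, are classical targets of interleukin-4 and interleukin-13 acting through STAT6, whereas Nos2 and Acod1, the enzyme that makes itaconate, are classical targets of interferon gamma and bacterial products. Il10 encodes an anti-inflammatory cytokine, and Spp1 encodes osteopontin, a secreted ligand of integrins and CD44 that macrophages of infarcted hearts are known to make. Arg1 is also known to respond to hypoxia.

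In the annotation of GRCm38 the genes lie on separate chromosomes. Arg1 spans 24915221 to 24927484 on the reverse strand of chromosome 10, Nos2 spans 78920787 to 78960254 on the forward strand of chromosome 11, and Chil3 spans 106147554 to 106167564 on the reverse strand of chromosome 3. Retnla spans 48842551 to 48844461 on chromosome 16, Il10 spans 131019845 to 131024974 on chromosome 1, Acod1 spans 103046977 to 103056573 on chromosome 14 and Spp1 spans 104435118 to 104441050 on chromosome 5, all on the forward strand.

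Promoters of 4 of the 7 genes, Acod1, Chil3, Retnla and Spp1, were found in the RefSeq table of GRCm38.p6, where each entry runs from 250 bases before the gene's start to 50 bases after it. Of these, 3 are printed 5' to 3' on the gene's own strand, with the promoter of Chil4, because Chil3 and Chil4 are near copies and because Chil3 and Acod1 were counted in neutrophils as well as macrophages and Retnla in few single cells. Capitals mark the letters of the motifs that were searched on both strands: TTCNNNGAA (the gamma-activated STAT site), TTCNNNNGAA (a STAT6-type site), TTGCNNAA (a C/EBP-type site), ACGTG (the hypoxia response core), TGANTCA (AP-1) and a kappaB site.
Retnla, chr16:48842359-48842658, forward strand: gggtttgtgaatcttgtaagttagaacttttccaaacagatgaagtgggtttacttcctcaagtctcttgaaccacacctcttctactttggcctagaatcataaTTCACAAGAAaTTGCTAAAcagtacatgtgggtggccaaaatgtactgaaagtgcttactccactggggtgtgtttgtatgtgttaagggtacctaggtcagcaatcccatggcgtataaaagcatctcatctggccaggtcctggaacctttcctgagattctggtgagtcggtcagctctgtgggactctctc
Chil3, chr3:106167515-106167814, reverse strand: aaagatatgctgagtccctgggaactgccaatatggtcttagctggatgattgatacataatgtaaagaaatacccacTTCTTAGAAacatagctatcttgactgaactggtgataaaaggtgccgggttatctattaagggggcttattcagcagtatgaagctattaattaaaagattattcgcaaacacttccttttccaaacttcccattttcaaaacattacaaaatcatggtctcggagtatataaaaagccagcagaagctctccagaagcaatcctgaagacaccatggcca
Chil4, chr3:106219430-106219729, reverse strand: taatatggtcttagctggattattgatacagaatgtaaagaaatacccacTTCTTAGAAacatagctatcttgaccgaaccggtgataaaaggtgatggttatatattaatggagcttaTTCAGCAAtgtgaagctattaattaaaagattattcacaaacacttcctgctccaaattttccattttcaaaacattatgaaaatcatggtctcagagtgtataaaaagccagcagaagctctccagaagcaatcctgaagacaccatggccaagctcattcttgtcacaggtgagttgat
Acod1, chr14:103046762-103047061, forward strand: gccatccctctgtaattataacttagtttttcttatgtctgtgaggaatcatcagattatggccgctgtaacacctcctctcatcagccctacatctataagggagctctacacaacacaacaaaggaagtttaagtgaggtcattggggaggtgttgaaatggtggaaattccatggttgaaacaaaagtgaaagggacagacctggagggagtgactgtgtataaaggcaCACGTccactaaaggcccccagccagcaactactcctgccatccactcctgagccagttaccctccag
The Retnla promoter held the STAT6-type letters TTCACAAGAA from base -145 to -136 before the start and the C/EBP-type letters TTGCTAAA from -134 to -127, while the Chil3 promoter held the gamma-activated letters TTCTTAGAA from -172 to -164. The same 9 letters stood in Chil4 from -200 to -192, where a C/EBP-type match on the opposite strand followed. Acod1 held the hypoxia core on the opposite strand from -18 to -14, and the second of 2 Spp1 starts had a C/EBP-type match. These matches are descriptions of letters: of 32851 RefSeq promoters of this length, 6.95% held the STAT6-type pattern, 8.30% the gamma-activated one, 10.8% the C/EBP-type one and 19.6% the hypoxia core. AP-1 and kappaB letters, found in 7.81% and 8.46% of all promoters, were in none of the members' windows.

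The 6 libraries held 3625 to 7286 deposited cells and 20995280 to 45649061 UMIs (unique molecules counted) each, and 3365 to 6824 cells were kept. The KO library at 72 h stood apart, with a median of 1351 UMIs per kept cell against 3076 to 8011 in the others, and 63.2% of its kept cells had at least 1000 UMIs against 92.2% to 97.4%. Any 2 libraries shared 3 to 14 cell barcodes, at most 0.206% of the smaller library. Trpm4, which encodes a calcium-activated cation channel, gave 260, 119 and 182 UMIs in the WT libraries and 180, 125 and 52 in the matching KO libraries, and was lower in KO in each pair once scaled to depth. The deleted part of the gene is not given in the sources used here, so these 3' counts do not check the genotype.

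Cells were clustered without the 7 genes, and clusters were named from marker lists. The monocyte/macrophage class had 1057 cells in WT sham, 816 in KO sham, 667 in WT and 1477 in KO at 24 h after ligation, and 2142 in WT and 2618 in KO at 72 h after ligation. At least 21 of its 22 markers, among them Csf1r and Cd68, were detected in every library of the class. Their median depth was 9701.5 to 11949 UMIs per cell in 5 libraries and 1406.5 in KO at 72 h. Markers of other cells were also counted in this class: the 13 neutrophil markers summed to 273 to 3428 CPM (UMIs of a gene scaled to the usual common total of UMIs of the class), highest at ligation 24 h, and the 6 erythroid markers to 2024 CPM in KO at 72 h, 349 CPM in WT at 72 h and at most 14.8 CPM elsewhere. The 13 endothelial markers summed to 41.1 to 963 CPM. Whether these move the members' values was not tested, except where stated. Levels below are UMIs of a gene summed over the class's cells of a library, in CPM of the class. They compare libraries or cell types for 1 gene, not genes with each other, since they are not per length.

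The 7 genes did not mark the same cells. Of all UMIs of a gene in kept cells, the monocyte/macrophage class held 97.0% for Arg1, 94.2% for Spp1, 93.4% for Il10, 70.8% for Retnla and 69.5% for Chil3. It held 30.1% of the Nos2 UMIs, and endothelial cells held 56.2%. It held 6.31% of the Acod1 UMIs, and neutrophils held 90.9%. Dendritic cells held 27.2% of the Retnla UMIs and neutrophils 26.0% of the Chil3 UMIs.

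**Figure D1:**
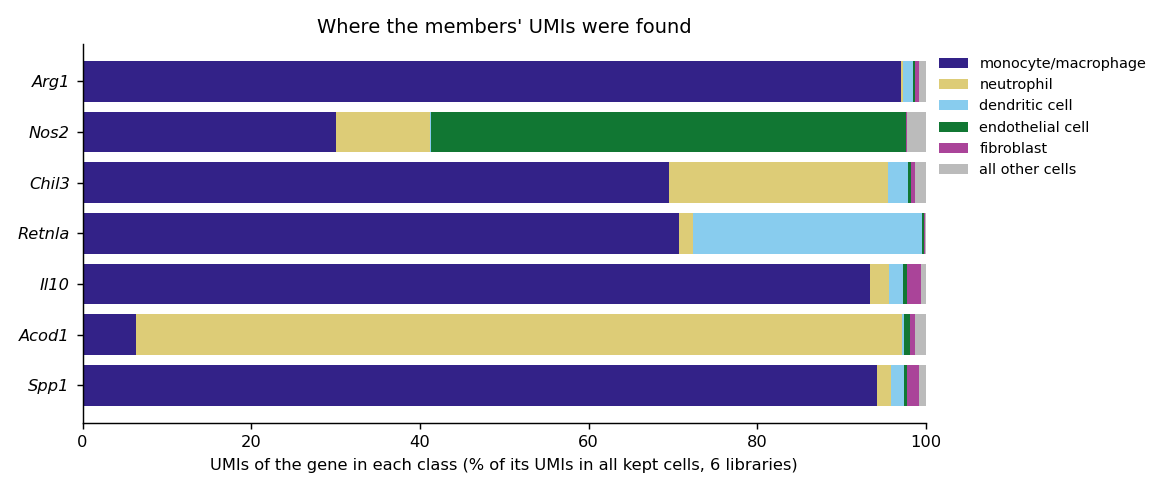
Share of each gene's UMIs (percent, over the 6 libraries) by cell class. Arg1, Spp1 and Il10 lay over 93% in the monocyte/macrophage class, whereas most Acod1 UMIs lay in neutrophils and most Nos2 UMIs in endothelial cells.

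Arg1 was already high in the sham hearts, was highest at 24 h after ligation and was lowest at 72 h, in both genotypes. Its level in monocyte/macrophage cells was 1933 CPM in WT sham, 2337 in KO sham, 3599.9 in WT and 3687 in KO at 24 h after ligation, and 642 in WT and 811 in KO at 72 h after ligation. Counting intervals separated all 6 libraries, but the KO and WT libraries of a condition lay closer to each other than to those of any other. From 24 h to 72 h Arg1 was 5.61-fold lower in WT (log2 -2.49, interval -2.51 to -2.46) and 4.55-fold lower in KO (log2 -2.19, interval -2.22 to -2.15). From sham to ligation 24 h it was 1.86-fold higher in WT and 1.58-fold higher in KO, under the 2-fold used here as the size of a difference. KO against WT it was 1.21-fold higher in sham, 1.02-fold higher at 24 h and 1.26-fold higher at 72 h, and at 24 h that sign turned with a finer clustering (log2 -0.34 at Leiden resolution 2).

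The share of cells with an Arg1 UMI followed the same order by time. After each cell was thinned to 1000 UMIs, leaving out shallower cells (22 in WT and 6 in KO sham, 4 and 7 at ligation 24 h, and 32 and 961 at 72 h), Arg1 was found in 46.0% and 45.7% of monocyte/macrophage cells in WT and KO sham, in 56.0% and 56.7% at ligation 24 h, and in 26.0% and 30.8% at 72 h. Unthinned shares were 57.2% and 55.0%, 66.9% and 71.5%, and 54.2% and 40.5%, and the reversed order of the genotypes at 72 h goes with the shallower KO library. Endothelial cells, which should lack Arg1, gave thinned shares of 0.494% to 2.20% in 5 libraries and 13.6% in KO at 72 h, at median depths of 1160 to 3653.5 UMIs. The macrophage share was above that background in each library.

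Within the class, Arg1 concentrated in 2 clusters. Cluster 6, led by Ccl24, Saa3, Ltc4s, Ednrb and Tppp3, held 48.9% of the class's Arg1 UMIs at 5489 CPM, with a UMI in 93.8% of its cells. Cluster 3, led by the chemokines Cxcl3 and Ccl2 and the hypoxia-associated genes Hilpda and Ero1l, held 38.8% at 2714 CPM. Their share of the class differed between conditions: cluster 6 was 37.2% and 33.3% of WT and KO sham cells, 26.5% and 16.6% at ligation 24 h and 8.31% and 5.50% at 72 h, and cluster 3 was 20.3% and 20.7%, then 41.5% and 51.5%, then 14.6% and 12.0%. Arg1 also differed inside cluster 6, where it was 4082 and 4553 CPM in sham, 6758 and 7400 at 24 h, and 3301 and 4479 at 72 h. The decrease to 72 h over the whole class was therefore larger than that inside cluster 6, and different clusters held most cells at the 2 times: at 72 h cluster 11, led by Syngr1, Gpnmb and Fcrls, was 27.1% of WT and 14.1% of KO cells, and cluster 16, led by the interferon-induced Cxcl10 and Ifit3, was 25.2% and 3.90%.

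Nos2 in macrophages was counted mostly at ligation 24 h. Its UMIs in the class were 5 in WT sham, 8 in KO sham, 257 in WT and 219 in KO at 24 h after ligation, and 20 in WT and 11 in KO at 72 h after ligation, which are 0.448, 0.926, 30.0, 11.8, 0.691 and 1.08 CPM. The 2 libraries at ligation 24 h were thus both far above the other 4, whose intervals overlap. Ligation 24 h was 66.9-fold above sham in WT (interval 28.3 to 208) and 12.8-fold above it in KO (6.38 to 30.0), on 5 and 8 sham UMIs (log2 6.06 and 3.68, and over the alternatives as low as 3.81 and 1.31), and 72 h was 43.4-fold and 10.9-fold below 24 h. At ligation 24 h Nos2 was 2.53-fold lower in KO than in WT (log2 -1.34, interval -1.61 to -1.07), but the value was under 2-fold (log2 -0.73) in cells thinned to 1000 UMIs, where 12 WT and 16 KO cells held a UMI.

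Few macrophages carried the Nos2 signal. A UMI was found unthinned in 54 of 667 WT cells (8.10%) and 62 of 1477 KO cells (4.20%) at ligation 24 h, and 11 cells with 10 or more UMIs, a size set after the values were seen, held 37.3% of the class's 520 UMIs. Cluster 3 held 77.5% of them, at 58.1 CPM in WT and 20.1 CPM in KO at ligation 24 h and 0 to 1.42 CPM in the other 4 libraries. The endothelial level was 33.6 and 32.2 CPM in sham, 33.5 and 27.4 at ligation 24 h, and 40.8 and 24.7 CPM at 72 h, with intervals that overlapped across the conditions in each genotype. Since the thinned share in endothelial cells was 1.91% to 4.70%, above the 0 to 1.81% of macrophages, background from free RNA cannot be read from that type for Nos2. Neutrophils had 5.63 and 0.651 CPM in sham, 23.1 and 8.65 at ligation 24 h, and 0 (a limit of 3 counts) and 1.16 at 72 h, and there too the KO library at 24 h was lower than WT, 2.67-fold (log2 -1.42, interval -1.86 to -0.98).

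**Figure D2:**
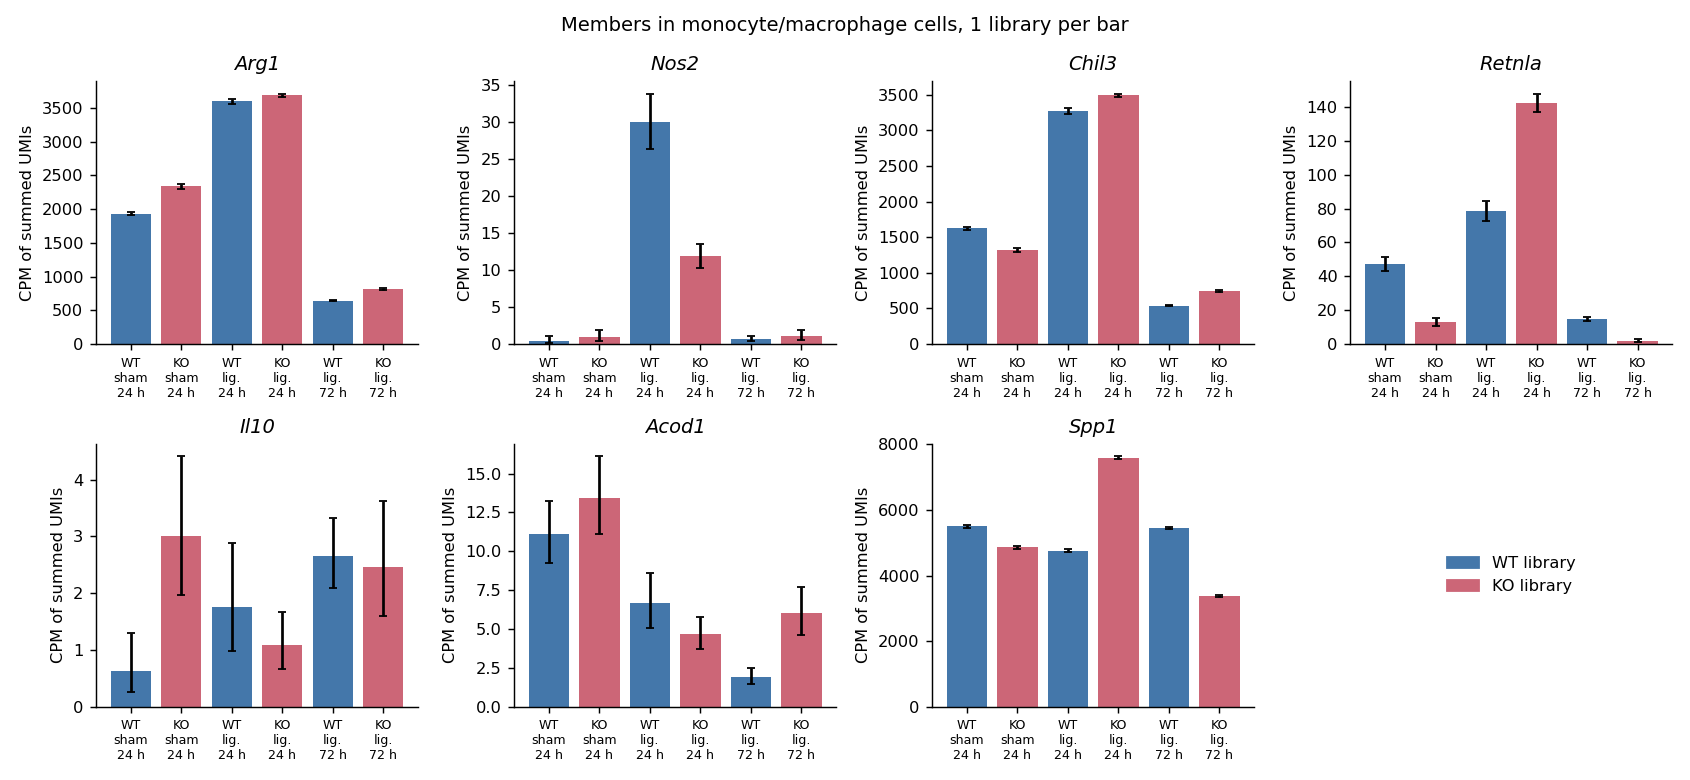
Level of each gene (CPM as bars, linear axis for each gene) in monocyte/macrophage cells of the 6 libraries, with exact Poisson 95% intervals as error bars. Arg1 and Chil3 were highest at ligation 24 h and lowest at 72 h in both genotypes, Nos2 stood out at ligation 24 h only, and Spp1 stayed within 3367 to 7600 CPM.

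Chil3, like Arg1, was highest at ligation 24 h and lowest at 72 h, and the 2 genes shared cluster 3 but not cluster 12. Its level in the class was 1625 CPM in WT sham, 1318 in KO sham, 3272 in WT and 3491 in KO at 24 h after ligation, and 535 in WT and 743 in KO at 72 h. Again the WT and KO libraries of a condition were neighbours in the order, with 24 h above sham and sham above 72 h. Chil3 was 2.01-fold higher at ligation 24 h than in sham in WT (log2 1.01, but under 2-fold at 0.99 with a coarser clustering or with leading genes in 10% of cells, and at 0.85 with a finer clustering) and 2.65-fold higher in KO, and from 24 h to 72 h it was 6.11-fold lower in WT and 4.70-fold lower in KO. KO against WT the ratios were log2 -0.30 in sham, 0.09 at 24 h and 0.47 at 72 h (-0.06 as a mean over cells), all under 2-fold.

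Thinned shares of macrophages with a Chil3 UMI were 40.6% and 37.2% in sham, 59.9% and 61.6% at ligation 24 h and 31.4% and 36.1% at 72 h, against 57.2%, 55.5%, 76.0%, 79.4%, 64.8% and 45.5% unthinned. Endothelial cells gave 0.691% to 2.30% in 4 libraries, 7.47% in KO at ligation 24 h and 17.2% in KO at 72 h, when thinned. Cluster 12, whose leading genes include Plac8 and Ifitm6, held 34.3% of the UMIs at 5227 CPM and cluster 3 held 40.3% at 2445 CPM. In cluster 12 alone the level was 4852 and 4704 CPM in sham, 6840 and 8323 at 24 h and 1909 and 1976 at 72 h, so the order of the conditions was the same inside the cluster. In cluster 12 Arg1 was found in 13.7% of cells and Chil3 in 88.1%, and in cluster 3 Arg1 was found in 78.2% and Chil3 in 82.2%.

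Neutrophils also held Chil3, with higher levels in the KO libraries. Their level was 384 CPM in WT and 848 in KO sham, 2113 in WT and 4535 in KO at 24 h after ligation, and 96.5 in WT and 134 in KO at 72 h. KO was 2.21-fold above WT in sham (log2 1.14, interval 1.02 to 1.27) and 2.15-fold above it at 24 h (log2 1.10, interval 1.07 to 1.13), and at 72 h the ratio was log2 0.47 (0.13 to 0.81). The share of all genes past 2-fold is not given for neutrophils, and the alternatives of the closing section were not run for them. The makeup of the class differed at ligation 24 h, where cluster 4 was 59.4% of WT and 36.1% of KO neutrophils, cluster 2 was 21.5% and 36.6%, and cluster 9 was 13.3% and 21.2%. Inside the clusters Chil3 was also higher in KO at 24 h, at 4606 against 2302 CPM in cluster 4, 5103 against 2275 in cluster 2, 3889 against 1324 in cluster 9 and 3747 against 1496 in cluster 17. In sham it was 979 CPM in KO against 451 in WT in cluster 2 and 481 against 180 in cluster 9. At 72 h cluster 2 gave 163 CPM in KO and 122 in WT, and cluster 17 gave 15.7 in KO, on 2 UMIs, and 54.4 in WT. Thinned shares of neutrophils with Chil3 were 16.1% in WT and 33.0% in KO sham, 49.5% and 70.4% at ligation 24 h, and 6.91% and 7.81% at 72 h, in 397 to 3350 cells. Endothelial cells, read for free RNA, had 9.17 and 7.02 CPM of Chil3 in sham, 19.9 and 115 at 24 h, and 4.33 and 165 at 72 h, higher in KO after ligation as well. Chil3 and Chil4 share 18.5% of the 50-base words of Chil3's longest transcript, so reads could be split or dropped between them, but only 7 UMIs in the class, 1 in WT sham and 6 in KO at ligation 24 h, were assigned to Chil4.

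Retnla was rare, and a handful of cells decided its totals. The class held 526 UMIs in 29 cells of WT sham, 111 in 16 of KO sham, 672 in 10 of WT and 2635 in 26 of KO at ligation 24 h, 424 in 8 of WT and 17 in 9 of KO at 72 h. In CPM these are 47.1, 12.9, 78.3, 142.5, 14.6 and 1.67. The single highest cell held 76.2% of the UMIs of WT and 51.9% of those of KO at ligation 24 h, and 79.0% in WT at 72 h. KO against WT, Retnla was 3.67-fold lower in sham (log2 -1.87, interval -2.18 to -1.58), 1.82-fold higher at 24 h (1.88 on the log2 scale without the highest cell of each library) and 8.76-fold lower at 72 h (log2 -3.13, interval -3.92 to -2.43). In KO, ligation 24 h was 11.1-fold above sham and 72 h was 85.2-fold below 24 h, and in WT the values were 1.66-fold higher (log2 -0.97 without the highest cells, -0.13 on thinned cells) and 5.35-fold lower. The sham difference was under 2-fold on thinned cells (log2 -0.85) and as a mean over cells (log2 -0.74), and so was the WT decrease to 72 h (log2 -0.52 and -0.73).

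The low value of KO at 72 h depends on the class a cell was put in. The highest Retnla cell of all, with 1412 UMIs, was in that library and was classed as a dendritic cell, where it made up most of the 1500 Retnla UMIs of that class. Over all kept cells Retnla was 17.7 and 3.69 CPM in WT and KO sham, 37.9 and 74.9 at ligation 24 h and 9.86 and 75.3 at 72 h, so that KO at 72 h was no longer low. Under 3 of the alternative cell sets, where that cell falls in the macrophage class, the KO against WT ratio at 72 h turned to log2 3.27, 3.33 and 3.44, and the ratio of 72 h to 24 h in KO was log2 -0.08, -0.62 and 0.0868. Without doublet removal the KO against WT ratio was log2 -0.51.

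Cells with at least 10 Retnla UMIs, a size chosen after the values were seen, numbered 41 of 32085 and held 5952 of 6196 UMIs (96.1%). In the macrophage class there were 10 and 4 of them in WT and KO sham, 4 and 11 at ligation 24 h, 3 in WT and 0 in KO at 72 h. Among these 32 cells Arg1 was found in 75.0% (54.4% of the other cells of the class), Spp1 in 37.5% (63.7%) and Chil3 in 25% (60.7%), although their median depth was higher, 14639 against 9197 UMIs. Inside cluster 6, which held 18 of them and 86.7% of the class's Retnla UMIs, all 18 had Arg1, and Spp1 was found in 33.3% against 74.3% of the other 1391 cells and Chil3 in 22.2% against 65.6%. The lysozyme gene Lyz1, whose reads can be split with its near copy Lyz2, was found in 72.2% of them against 5.75%. Cluster 15, led by Lyve1 and Mgl2, markers of resident cardiac macrophages, held another 13, and there Spp1 (38.5% against 30.0%) and Chil3 (23.1% against 16.9%) were not less frequent.

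**Figure D3:**
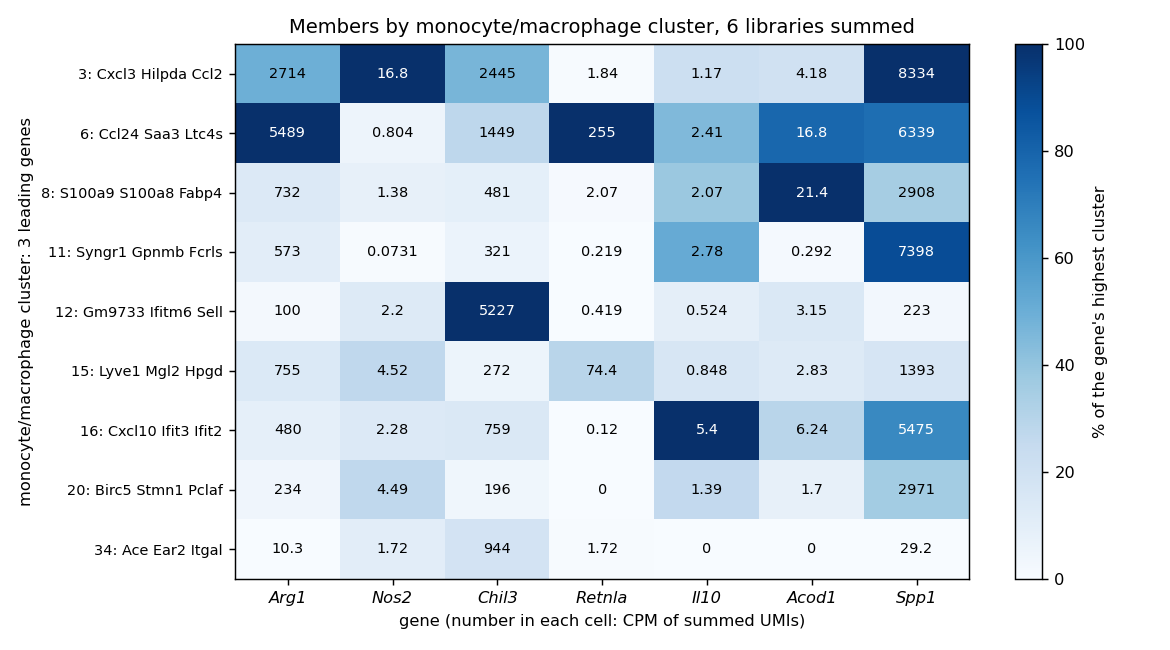
Level of each gene (CPM, printed in each square) in the 9 clusters of the monocyte/macrophage class over all libraries, shaded by percent of the gene's highest cluster. Arg1 peaked in cluster 6, Nos2 and Spp1 in cluster 3, Chil3 in cluster 12, Retnla in cluster 6 and Il10 in cluster 16. Acod1 was highest in cluster 8, on 31 UMIs, and next in cluster 6, with overlapping intervals.

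Il10 was near the limit of detection. It gave 7 and 26 UMIs in WT and KO sham, 15 and 20 at ligation 24 h, and 77 and 25 at 72 h, or 0.627, 3.01, 1.75, 1.08, 2.66 and 2.46 CPM, and 19 of the 26 UMIs in KO sham were from 1 cell. In the comparisons with at least 50 UMIs the intervals held 0: KO against WT at 72 h was log2 -0.11 (-0.83 to 0.55), and 72 h against 24 h in WT was log2 0.61 (-0.21 to 1.51). UMIs were found in 63 of 2142 WT cells (2.94%) and 23 of 2618 KO cells (0.879%) at 72 h, at median depths of 11949 and 1406.5, and thinned in 4 of 2110 and 2 of 1657. The highest cluster level was 5.40 CPM in cluster 16.

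Acod1 was found mainly in neutrophils. There it was 659 CPM in WT and 537 in KO sham, 354 and 301 at ligation 24 h, and 199.7 and 247 at 72 h, with all genotype ratios under 2-fold (log2 -0.30, -0.23 and 0.30). In both genotypes the level was highest in sham, and so it was inside cluster 2, at 691 and 546 CPM in sham, 469 and 285 at 24 h and 172 and 164 at 72 h. The thinned share of neutrophils with a UMI was 29.5% and 26.9%, then 21.8% and 18.5%, then 12.0% and 14.6%.

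In monocyte/macrophage cells Acod1 was 11.1 CPM (124 UMIs) in WT and 13.4 (116) in KO sham, 6.64 (57) and 4.65 (86) at ligation 24 h, and 1.90 (55) and 6.00 (61) at 72 h. It was lower after ligation than in sham, by log2 -0.74 in WT and -1.53 in KO at 24 h, and without removal of doublets the KO value was log2 -0.55. From 24 h to 72 h it was 3.50-fold lower in WT (log2 -1.81), while in KO the interval held 0 (log2 0.37, -0.13 to 0.86). KO against WT was log2 0.27 in sham (-0.35 on thinned cells) and -0.51 at 24 h. At 72 h KO was 3.16-fold above WT (log2 1.66, interval 1.11 to 2.21). Without cluster 8 that ratio was log2 0.95. Cluster 8 had a median of 813 UMIs per cell, was led within the class by the neutrophil genes S100a9 and S100a8, and made up 45.5% of the KO class at 72 h against 0.735% to 2.33% elsewhere. The neutrophil markers of the class were 1932 CPM in KO against 273 in WT at 72 h. Cluster 6 held 50.3% of the class's Acod1 UMIs at 16.8 CPM, and cluster 8 held 6.21% at 21.4 CPM. In sham, cluster 6 held 70.2% of them in WT and 87.9% in KO. Its level was 22.4 and 32.8 CPM in sham and 12.8 and 3.55 at ligation 24 h. At 72 h it was 2.03 and 34.6 CPM, on 2 and 12 UMIs. The neutrophil markers of the class summed to 571 and 611 CPM in sham and 2405 and 3428 at ligation 24 h. What part neutrophil RNA or the share of cluster 6 has in the remaining Acod1 values was not tested.

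Spp1 was not lowest at 72 h in WT, unlike Arg1 and Chil3, and was so in KO. Its level was 5503 CPM in WT and 4859 in KO sham, 4753 in WT and 7600.0 in KO at 24 h after ligation, and 5440 in WT and 3367 in KO at 72 h. The WT libraries lay close together, and the KO libraries were both the highest and the lowest of the 6. From sham to 24 h the ratio was log2 -0.21 in WT (0.01 on thinned cells) and 0.65 in KO, and from 24 h to 72 h it was log2 0.19 in WT and -1.17 (2.26-fold lower, interval -1.19 to -1.16) in KO, which was under 2-fold at the finer clustering (log2 -0.76). KO against WT was log2 -0.18 in sham, 0.68 at 24 h and -0.69 at 72 h, all under 2-fold. Thinned shares of cells with Spp1 were 42.6% and 39.1%, 43.0% and 52.8%, and 49.6% and 54.9%, so KO was not below WT at 72 h in that measure. Endothelial cells gave 2.30% to 9.08% in 5 libraries and 29.2% in KO at 72 h.

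The clusters that held Spp1 changed with time. Cluster 3 held 41.9% of its UMIs at 8334 CPM, cluster 11 held 21.2% at 7398 CPM, and cluster 6 held 19.9% at 6339 CPM. Cluster 11 was almost only a 72 h cluster, with 580 WT and 370 KO cells of 1000, and there Spp1 was 7712 CPM in WT and 5254 in KO while Arg1 was 562 and 541 CPM. In cluster 6 Spp1 went from 5451 and 4651 CPM in sham to 5149 and 10697 at 24 h and 1708 and 4231 at 72 h. In the monocyte-like cluster 12 it was 223 CPM over all libraries.

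More of the 7 genes passed 2-fold between conditions (ligation against sham, both at 24 h, and 72 h against 24 h after ligation) than between genotypes, as did more genes overall. KO against WT, 0 of 5 members with at least 50 UMIs were 2-fold higher and 1 lower in sham, where 2.27% and 0.35% of all measured genes were. At ligation 24 h it was 0 and 1 of 6, against 0.497% and 1.27% of genes, and at 72 h 1 and 1 of 6, against 3.19% and 0.591%. From sham to ligation 24 h, 2 of 6 members were 2-fold higher and 0 lower in WT, where 2.57% and 4.03% of genes were, and 3 of 6 higher and 1 lower in KO, against 1.7% and 7.74%. Between 24 h and 72 h after ligation, 5 of 7 members were lower and 0 higher in WT, against 7.2% and 12.1% of genes, and 5 of 6 lower and 0 higher in KO, against 2.97% and 9.18%. That KO count of 5 was 2 with the finer clustering and 3 with leading genes in 10% of cells, where cluster 3 left the class. Cluster 3 held 188 of the 219 Nos2 UMIs of KO at ligation 24 h. Without it Nos2 fell under the minimum of 50 UMIs and was not counted. In the main setting the median log2 ratio of the measured members from 24 h to 72 h was -2.42 in WT and -2.21 in KO, beside 0.04 and 0.13 for all genes. The comparisons with sham and with 72 h share the libraries at ligation 24 h, and they share libraries with the genotype comparisons too. The median gene itself shifted by log2 -0.12 for KO against WT at 24 h, by -0.12 (WT) and -0.28 (KO) from sham to 24 h and by 0.13 from 24 h to 72 h in KO, and all 20 member values past 2-fold stayed so relative to it.

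**Figure D4:**
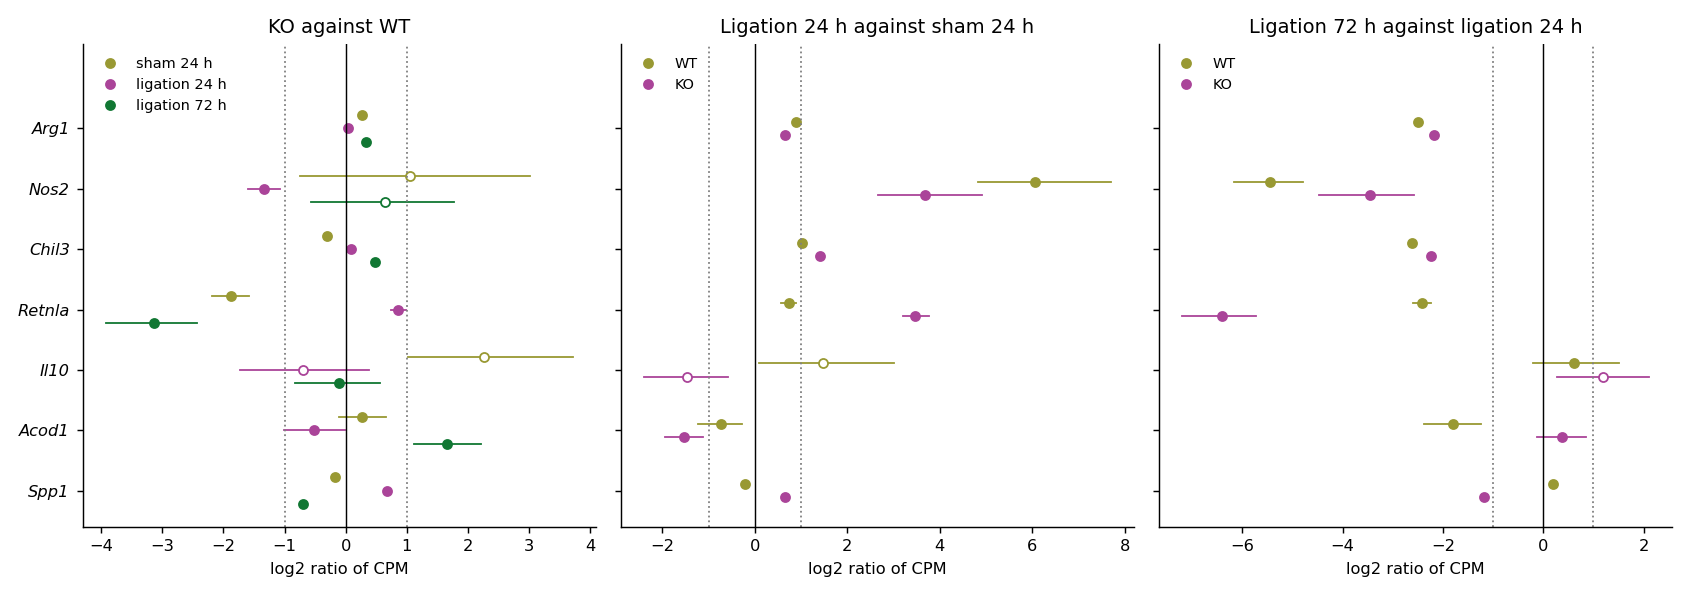
Log2 ratio of each gene between 2 libraries in monocyte/macrophage cells, with exact 95% counting intervals. Arg1, Chil3, Nos2 and Retnla lay below -2 from 24 h to 72 h in both genotypes, whereas the genotype ratios of Arg1, Chil3 and Spp1 lay within 1 of 0.

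Single cells often held both Arg1 and Spp1. In thinned monocyte/macrophage cells both were found in 31.3% of WT and 31.1% of KO sham cells, 35.4% and 42.7% at ligation 24 h, and 18.9% and 22.7% at 72 h. Spp1 was found in 68.1% and 68.1%, 63.3% and 75.3%, and 72.5% and 73.6% of the cells with Arg1, against 20.9% and 14.8%, 17.1% and 23.3%, and 41.6% and 46.6% of the rest of the class. The share was higher with Arg1 in 6 of 6 libraries and in all alternatives run, and within cluster 3 it was also higher in 6 of 6. Endothelial cells held both in 0 to 0.855% of cells in 5 libraries and in 7.42% in KO at 72 h, a measure of what free RNA gives there.

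Arg1 and Chil3 did not go together in this way. Both were found in 20.2% and 19.9% of sham cells, 34.5% and 33.1% at ligation 24 h, and 6.64% and 10.9% at 72 h. Chil3 was more frequent in cells with Arg1 than in the rest in WT sham (43.9% against 37.7%), KO sham (43.5% against 31.8%) and WT at 24 h (61.7% against 57.5%), and less frequent in KO at 24 h (58.4% against 65.9%) and at 72 h in WT (25.5% against 33.4%) and KO (35.4% against 36.5%). Inside cluster 3 Chil3 was less frequent with Arg1 in 6 of 6 libraries, with a difference from 60.9% against 61.0% in WT sham to 40.6% against 64.4% in KO sham. It was also less frequent inside cluster 6 in the 5 libraries read there, among them WT sham (38.0% against 60.7%). Cluster 15 went the other way in each library read there. The shares were 27.3% against 2.82% in WT sham, 30% against 0.971% in KO sham and 25.9% against 13.6% in KO at 24 h. They rest on 11, 20 and 27 cells with Arg1. Chil3 was also more frequent with Arg1 in cluster 12 in KO at 24 h and in cluster 20 in KO at 72 h. In the other clusters and libraries read it was less frequent. Chil3 and Spp1 were both found in 11.7% to 32.7% of cells, and Spp1 was more frequent with Chil3 in the 4 libraries taken at 24 h and less frequent in both at 72 h (37.2% against 55.3% in WT and 46.1% against 59.9% in KO). Inside cluster 3, Spp1 was less frequent with Chil3 in WT sham (70.2% against 71.4%) and KO sham (69.8% against 74.7%). There it was also less frequent in KO at ligation 24 h (66.2% against 73.3%) but more frequent in WT (63.3% against 49.4%). Inside clusters 6, 12 and 15 it was more frequent in each 24 h library read there. At 72 h it was less frequent inside cluster 3 and more frequent inside cluster 11, in both genotypes.

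**Figure D5:**
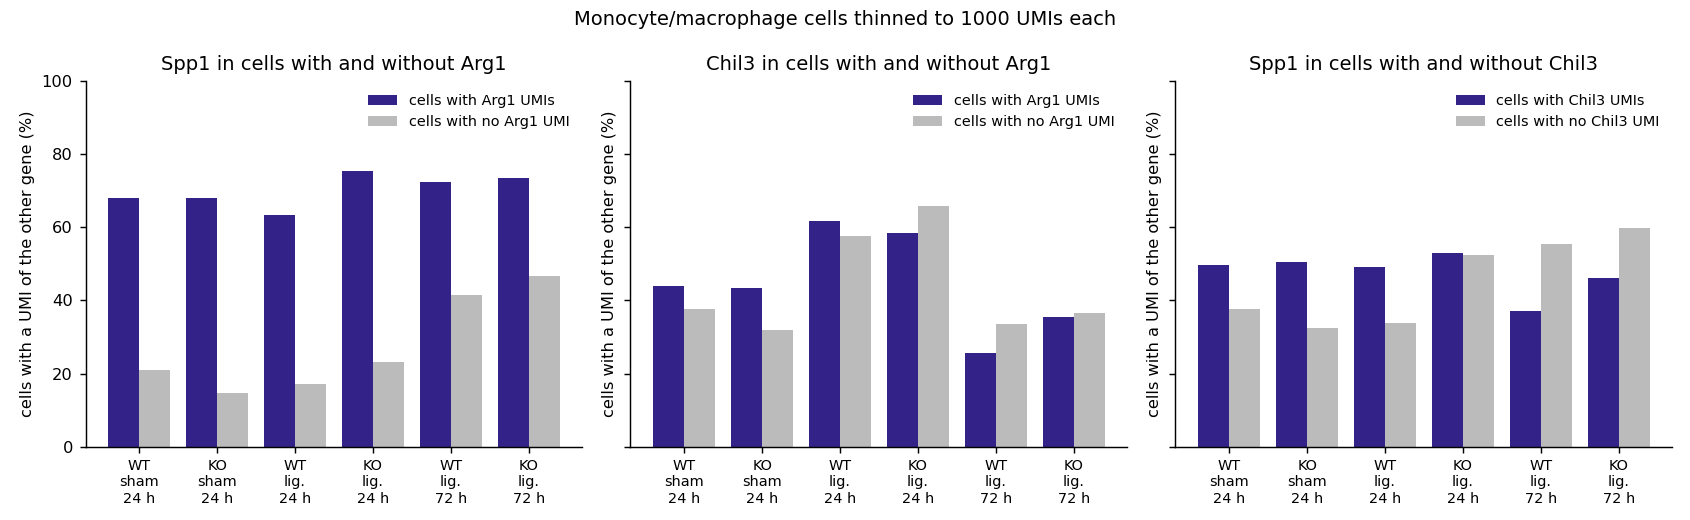
Percent of thinned monocyte/macrophage cells with the second gene of a pair, among cells with the first gene and among the rest, by library. Cells with Arg1 held Spp1 more often than the rest in all 6 libraries, whereas for Arg1 and Chil3 the order of the 2 shares differed between libraries.

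Markers commonly placed at opposite ends of polarization were found in the same cells. Of 32 thinned cells with a Nos2 UMI among 7745, 24 also held Arg1, 24 Spp1 and 22 Chil3. Over the class Spp1 and Chil3 were each more frequent with Nos2 in 3 libraries and less frequent in 1. Inside cluster 3 at ligation 24 h, where 9 WT and 13 KO thinned cells held Nos2, both were less frequent with it. Chil3 was in 44.4% against 71.6% of the rest in WT and 61.5% against 64.2% in KO. Spp1 was in 44.4% against 59.7% and 53.8% against 69.0%. Unthinned, Arg1 was found in 45 of the 54 Nos2 cells of WT at ligation 24 h (83.3%, against 65.4% of the rest) and in 56 of 62 of KO (90.3%, against 70.7%). Thinned endothelial cells gave Arg1 in 0.766% and 2.20%, at a lower depth, so they understate the background for these unthinned shares. Over all cluster 3 cells at ligation 24 h, Arg1 was found unthinned in 79.4% in WT and 87.8% in KO. That cluster held 77.5% of the class's Nos2 UMIs. No thinned cell held Nos2 together with Retnla, Il10 or Acod1, each of which was found in 10 to 44 cells in all, so these depths could not show such cells well. Of the 43 thinned cells with Retnla, 27 held Arg1, 10 held Chil3 and 5 held Spp1. Chil3 was less frequent with Retnla than in the rest in all 6 libraries, but these signs rest on few Retnla cells. Both genes were found in 1 cell in 4 of the libraries. Some Retnla cells lay in cluster 15 (7 in WT and 5 in KO sham), where Chil3 was in 9 of 224 and 8 of 226 thinned cells. In neutrophils, where Chil3 and Acod1 are both frequent, Acod1 was found in 15.8% and 22.1% of Chil3 cells in sham, 20.7% and 15.8% at ligation 24 h, and 6.25% and 3.23% at 72 h, against 32.1% and 29.3%, 22.9% and 24.9%, and 12.4% and 15.6% of the rest. It was lower with Chil3 in each library, except unthinned in WT at ligation 24 h (44.1% against 39.7%). The 72 h shares rest on few Chil3 cells, since neutrophils then held 198 Chil3 UMIs in WT and 115 in KO. Pairs were not read inside single neutrophil clusters.

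Most macrophages held some of the 7 genes. In thinned cells 27.9% of WT and 33.5% of KO sham cells held none, 15.8% and 11.3% did at ligation 24 h, and 25.9% and 20.6% at 72 h. At least 3 genes in 1 cell were commonest at 24 h, where exactly 3 were found in 24.1% of WT and 26.1% of KO cells, against 14.4% and 14.3% in sham and 4.31% and 7.18% at 72 h. No cell held 5 or more.

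Genes of the surrounding pathways were read from 9 lists, given here as counts past 2-fold with the list's median log2 ratio and that of all genes. A list of 18 genes of alternative activation holds known targets of interleukin-4 and interleukin-13, their receptor and STAT6, and also Cd163, which is better known for induction by interleukin-10 and glucocorticoids. Of these, 16 were measured in WT from sham to ligation 24 h, of which 4 were higher and 1 lower (median 0.16, all genes -0.12), and in KO 4 were higher and 2 lower (-0.25, all genes -0.28). The STAT-induced feedback inhibitors Cish (log2 3.70) and Socs1 (2.08) were highest in WT, Pdcd1lg2, a ligand of the checkpoint receptor PD-1, was highest in KO (2.96), and the lectin gene Mgl2 was lowest in WT (-1.46) and KO (-2.19). At 72 h against 24 h, 8 of 16 were lower and 0 higher in WT (-0.997, all genes 0.04), led by the chemokine gene Ccl24 (-4.80) and Cish (-4.68), and 6 of 15 were lower and 0 higher in KO (-0.70, all genes 0.13), led by Ccl24 (-3.63) and the scavenger receptor gene Cd163 (-3.11).

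The genes of classical activation split. From sham to ligation 24 h 6 of 16 were higher and 2 lower in WT (median 0.52) and 2 higher and 1 lower in KO (-0.07). The cytokine gene Il6 (2.35) and the prostaglandin synthase gene Ptgs2 (2.33) were highest in WT, and the chemokine gene Cxcl10 (2.58) was highest in KO. From 24 h to 72 h, of 18 genes 7 were higher and 9 lower in WT (median -0.84) and 7 higher and 5 lower in KO (0.08). Il6 was lower in both (-5.85 and -3.69), whereas Ccl5, a chemokine gene, was higher in both (2.83 and 6.80). Cxcl9 was also higher in both. In WT it went from 0 to 261 UMIs (log2 4.69 with 3 in place of 0, lower limit 4.38). In KO it went from 1 to 94 UMIs (log2 7.42, interval 4.90 to 12.7). KO against WT at ligation 24 h 2 of 16 were lower and 0 higher (median -0.33, all genes -0.12), Il6 (-2.11) and the interleukin-1 alpha gene Il1a (-1.13). At 72 h 3 of 17 were higher, with Ptgs2 (1.65) and Il1b (1.57) at the top, in the library where cluster 8, which Il1b and neutrophil genes lead, was 45.5% of the class.

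Arginine and polyamine metabolism had 14 genes, all measured. From sham to 24 h 2 were higher and 0 lower in WT, Slc7a2, a carrier of cationic amino acids (1.35), and Arg2, the mitochondrial arginase (1.38), and 2 were higher and 1 lower in KO, with Ass1, which makes argininosuccinate, at 1.29. Slc7a2 was lower at 72 h than at 24 h in WT (-3.34) and KO (-1.91), alongside Arg1. Of the receptors of osteopontin, Cd44 was lower in WT at 72 h than at 24 h (-1.56), while the integrin genes Itgb5 (1.15) and Itga9 (1.20) were higher, and Itga9 was also higher in KO (1.51). Of 15 genes of itaconate and succinate only Nfkbiz, a nuclear regulator of NF-kappaB target genes, passed 2-fold in any comparison, lower in KO than WT at ligation 24 h (-1.04), higher in KO at 72 h (1.10) and lower in WT from 24 h to 72 h (-1.71). Of 12 genes of interleukin-10 signaling 3 were higher in WT from sham to 24 h, Nfil3 (1.21) and Socs3 (1.10) among them, and 3 were lower from 24 h to 72 h in each genotype.

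Many of the hypoxia genes were higher at ligation 24 h than in sham and lower at 72 h than at 24 h. From sham to ligation 24 h 6 of 12 measured were higher in WT (median 1.17) and 9 of 13 in KO (1.07), with 0 lower, led by Egln3, an oxygen-sensing hydroxylase (3.44 and 2.99), and Hilpda, a lipid droplet gene (2.40 and 2.15). At 72 h 7 of 13 were lower and 0 higher than at 24 h in each (median -1.26 and -1.07), Egln3 by log2 -3.26 and -2.21. Egln3 was then 6.08 CPM in WT and 8.36 in KO, beside 5.37 and 4.86 in sham. Hilpda in KO was 69.9 CPM at 72 h, beside 72.0 in sham. Arg1 at 72 h lay below its sham level in both genotypes. Any link between hypoxia and the Arg1 levels was not tested. Vegfa, the vascular growth factor gene, was lower in KO than WT at 24 h (-1.02) and higher at 72 h (1.77). Of 12 upstream cytokine and receptor genes 8 were measured, and only Il13ra1 (-1.64 in WT and -1.02 in KO) and Tlr4 (-1.44 in WT) passed 2-fold, both lower from 24 h to 72 h. Among 10 related copies Retnlg, a neutrophil gene of the resistin-like family, was higher in KO at sham (3.48) and at 72 h (4.30), as the neutrophil markers were at 72 h.

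Across 56 units of a cell class and a library, from 13 classes, the genes with the levels most like each member's were named by Pearson's r of log2(CPM + 10) among 5094 genes. These are descriptions, since units share libraries and depth. For Arg1 they include the scavenger receptor gene Msr1 (0.93) and the transcription factor gene Maf (0.92). For Chil3 they were Ccl6 (0.91), Cd14 (0.90) and Itgam (0.89), for Spp1 Ccl9 (0.88), Adgre1 (0.87) and Lgals3 (0.86), and for Acod1 the neutrophil genes Stfa1 (0.97), Il1f9 (0.96) and Dhrs9 (0.96). Nos2 was nearest to Rgcc (0.76), Abcb1a (0.72) and Prkch (0.71), Retnla to Lyz1 (0.66), Tfec (0.65) and Ms4a8a (0.65), and Il10 to Folr2 (0.75), Cbr2 (0.70) and Msr1 (0.65).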

How the data were processed

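The deposited files hold, per the file headers, whole UMI counts per gene and cell for 6 libraries, and the submitters' processing notes name Cell Ranger 6.0.0 and mm10. The authors' filters after counting are not given in the sources used here. Counts were used as deposited. The 7 genes, the marker and gene lists and the tests were chosen with earlier results of these data known.

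Cells with at least 200 genes and at most 20% mitochondrial UMIs were kept. Doublets were scored with Scrublet in scanpy 1.11.5, and the top scores were removed at 0.8% per 1000 deposited cells (101 to 422 cells per library), since the automatic threshold marked only 0 to 58. After scaling to 10000 UMIs per cell and a log transform, the 2000 most variable genes (the 7 members left out) gave 30 principal components and 20 neighbours per cell, clustered by the Leiden method (leidenalg 0.10.2, resolution 1) with no correction between libraries. Of the 37 clusters each was named by the class with the largest share of markers detected, and stayed unnamed where its leading genes went against that class. The leading genes had to be found in 25% of a cluster's cells, a threshold set after the data were seen.

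CPM are UMIs of a gene over all UMIs of the class in a library, with exact Poisson intervals. Ratios carry the exact conditional interval of 2 Poisson counts, shares the exact Clopper-Pearson interval. Where a library had 0 UMIs, 3 were put in its place and the ratio is a bound. A gene was measured with at least 50 UMIs over 2 libraries and passed at 2-fold. Because each group holds 1 library, no p-value was computed. The ratio code was tested on simulated counts.

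All 7 members are named whatever they do. Of each list at most the 2 highest and 2 lowest ratios past 2-fold are named in a comparison, and the 3 genes of highest r for each member. Clusters are described by their leading genes over the rest of the class. Some genes that these rules name are not reported here. Retnla and Nos2 cells with at least 10 UMIs, and Lyz1 in them, were looked at after their values were seen. Promoter sequences come from RefSeq (GRCm38.p6), positions from GENCODE annotation of GRCm38. The closing section gives the effect of other resolutions, doublet and mitochondrial filters, thinning, scaling and count minimums.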

Additional observations from a re-analysis of the deposited data

Results flagged for a closer look

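In monocyte/macrophage cells, 9 pairs of comparisons gave a member opposite signs with counting intervals that exclude 0 on both sides. None of these differences was tested against a spread between mice, because each group holds 1 library, and pairs that share a library are not independent.

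Spp1 appears in 4 of them. From sham to ligation 24 h it was log2 -0.21 in WT and 0.65 in KO, a difference of 0.857. From 24 h to 72 h it was 0.19 in WT and -1.17 in KO, a difference of -1.37. KO against WT it was -0.18 in sham and 0.68 at ligation 24 h, a difference of 0.857, and then -0.69 at 72 h, a difference of -1.37 from 24 h.

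Retnla was lower in KO in sham (-1.87), higher at ligation 24 h (0.86) and lower at 72 h (-3.13), with a difference of 2.74 between sham and ligation at 24 h and of -3.99 between 24 h and 72 h after ligation. These values rest on few cells. Acod1 was lower in KO at 24 h (-0.51) and higher at 72 h (1.66), a difference of 2.17, and the 13 neutrophil markers of the class summed to 1932 CPM in KO and 273 CPM in WT at 72 h. Chil3 was lower in KO in sham (-0.30) and higher at 24 h (0.09) and 72 h (0.47), by 0.395 and 0.775, all ratios under 2-fold.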

How the results depend on the processing

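All alternatives were run in monocyte/macrophage cells only, so neutrophil values were not checked under them. Over 12 alternatives, 2 of them added after the data were seen (leading genes in 10% of cells, and leaving out cluster 8), 221 of 240 values past 2-fold kept their direction and size, 15 kept the direction under 2-fold and 4 reversed. All 4 were Retnla: KO against WT at 72 h was log2 3.27 at Leiden resolution 0.5, 3.33 at resolution 2 and 3.44 at a mitochondrial maximum of 10%, and 72 h against 24 h in KO was 0.0868 at the last. In these sets the cell with 1412 UMIs, classed as a dendritic cell in the main clustering, fell in the class after clustering anew. Of 22 values under 2-fold, 7 passed it in some alternative.

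Counts of members past 2-fold that changed by more than 1.5 times were as follows, and smaller changes are not listed. KO against WT at 72 h, the higher count of 1 was 2 at both resolutions and at 10% mitochondrial UMIs and 0 without cluster 8, and the lower count of 1 was 0 at both resolutions, at 10% and without doublet removal. KO against WT at 24 h, the lower count of 1 was 2 at resolution 2 and 0 on thinned cells, and the higher count of 0 was 1 without the top cell of each library and with leading genes in 10% of cells. KO against WT in sham, the lower count of 1 was 0 as a mean over cells and on thinned cells, and the higher count of 0 was 1 with a minimum of 20 UMIs and 2 with none. From sham to 24 h, the higher count of 2 in WT was 1 at resolution 0.5, the lower count of 0 in WT was 1 as a mean over cells, and the lower count of 1 in KO was 0 without doublet removal and 2 with a minimum of 20 UMIs or none. From 24 h to 72 h, the lower count of 5 in KO was 2 at resolution 2 and 3 with leading genes in 10% of cells, and the higher count of 0 was 1 in KO as a mean over cells and with a minimum of 20 UMIs or none, and 1 in WT without doublet removal. With leading genes in 10% of cells, cluster 3 with its 2049 cells became unnamed and so left the class. At 10% mitochondrial UMIs a cluster of 1357 cells, 1246 from KO at 72 h, was unnamed. Apart from the loss of cluster 3 and the place of the highest Retnla cell, the cause was not tested.

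The share of cells with both Arg1 and Spp1, 18.9% to 42.7% over the libraries, was 12.3% to 34.9% when thinned to 500 UMIs, 25.8% to 49.6% at 2000 UMIs, up to 52.8% for at least 2 UMIs unthinned, from 16.7% at resolution 0.5, 15.7% to 27.9% at resolution 2 and 16.3% to 29.5% with leading genes in 10% of cells. No paired analysis was possible because each group holds 1 library. Depth limits Il10, Nos2 outside ligation 24 h, and those Retnla and Acod1 values that differ on thinned cells.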
